A study of Mus musculus with 6 samples.

Results

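A set of 10 genes of the slit, Robo and netrin guidance systems were followed in SHH medulloblastoma, a tumour of cerebellar granule neuron progenitors. The tumours had Crebbp either left intact or targeted for deletion. The 10 genes were the ligand genes Slit1, Slit2, Slit3 and Ntn1 and the receptor genes Robo1, Robo2, Dcc, Unc5b, Unc5c and Unc5d. They were taken by name from the features with exactly 1 gene symbol on the array, and all 10 were measured, out of 22180 genes in all. Each of the 10 had 1 feature.

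The series holds 6 tumours, each measured on 1 Affymetrix whole-transcript array. In 3 knockout tumours (Math1Cre::CrebbpFl/FlSmoM2Fl/+) both floxed alleles of Crebbp, a histone acetyltransferase gene, were to be deleted, and in 3 wild type tumours (Math1Cre::SmoM2Fl/+) Crebbp was left intact. All 6 tumours carried SmoM2, an active form of the hedgehog transducer Smoothened, and the sample descriptions name the recombinase as CreERT2, the tamoxifen-dependent form. All mice were given 1 mg tamoxifen at postnatal day 5, and those with clear tumours were killed at postnatal day 60, although the age label reads postnatal day 5. The Math1 promoter, known to be active in granule neuron progenitors, drives the recombinase, so cells of other lineages in the tumour tissue are not targeted by design, and where recombination took place was not measured. Nothing in the labels says whether tumours of a group came from separate litters, so p-values measure the spread between these 6 samples only. The values are log2 levels on the scale of robust multi-array averaging (RMA), whose precision is limited by having 3 arrays a group.

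Slits are large secreted proteins that bind Robo receptors, and the pair is best known for repelling growth cones and migrating neurons from the midline. Netrin-1, the product of Ntn1, is secreted too. It attracts axons through the receptor Dcc and repels them through receptors of the Unc5 family, alone or together with Dcc. In the cerebellum, mice that lack Unc5c have granule cells outside the normal border of the cerebellum.

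Facts of the whole series bear on every value below. Crebbp itself had log2 levels of 11.24, 11.34 and 11.20 in knockout tumours, against 11.80, 11.76 and 11.70 in wild type tumours, a log2 change of -0.50 (SE 0.09, limma adjusted p = 0.0948), and the labels do not say which exons were deleted. Xist lay between 12.26 and 12.46 in knockout and between 5.13 and 5.74 in wild type arrays, and the Y-linked Kdm5d, Eif2s3y and Uty lay between 4.31 and 5.49 in knockout and between 9.32 and 10.18 in wild type arrays. The knockout arrays thus carry the female and the wild type arrays the male pattern, so that sex and genotype cannot be told apart in any comparison given here. The 12 values of these transcripts in the sex that lacks them had a median of 5.11 and a maximum of 5.74, which serves as the level of an absent transcript. Wild type replicate 3 stood somewhat apart from the other wild type arrays: 72 genes, 0.325% of all, lay more than 1 log2 unit below both of the others, against 8 genes for wild type replicate 1 and 7 for wild type replicate 2. More than 1 log2 unit above both of the others lay 63 genes in wild type replicate 3, 27 in replicate 1 and 9 in replicate 2. Among knockout arrays, replicate 2 had 54 genes so far below and 17 so far above. Knockout replicate 1 had 12 below and 15 above, and replicate 3 had 6 below and 8 above. Progenitor markers were high in all arrays, with group means of 9.48 or more for each of the 8 genes listed, Atoh1, Gli1, Mycn, Ccnd1, Barhl1, Zic1, Zic2 and Mki67.

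None of the 10 guidance genes passed an adjusted p of 0.05 (limma, Benjamini-Hochberg over all genes), where 46 genes, 0.207% of all, did (0.126% higher and 0.0812% lower in knockout tumours). At an unadjusted p under 0.05 there were 4 of 10, against 13.8% of all genes. The same 4 genes had knockout and wild type values that did not overlap, which held for 19.6% of all genes. Slit1 was higher in all 3 knockout tumours, where 10.2% of all genes were higher without overlap, and Robo1, Ntn1 and Unc5d were lower, where 9.43% were. The median log2 change of the 10 genes was -0.07, against 0.00 over all genes, with 4 positive and 6 negative changes. The median size of the change, whatever its sign, was 0.32, against 0.12 over all genes. In these bulk samples, fewer cells of a type and less RNA per cell cannot be told apart.

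**Figure D1:**
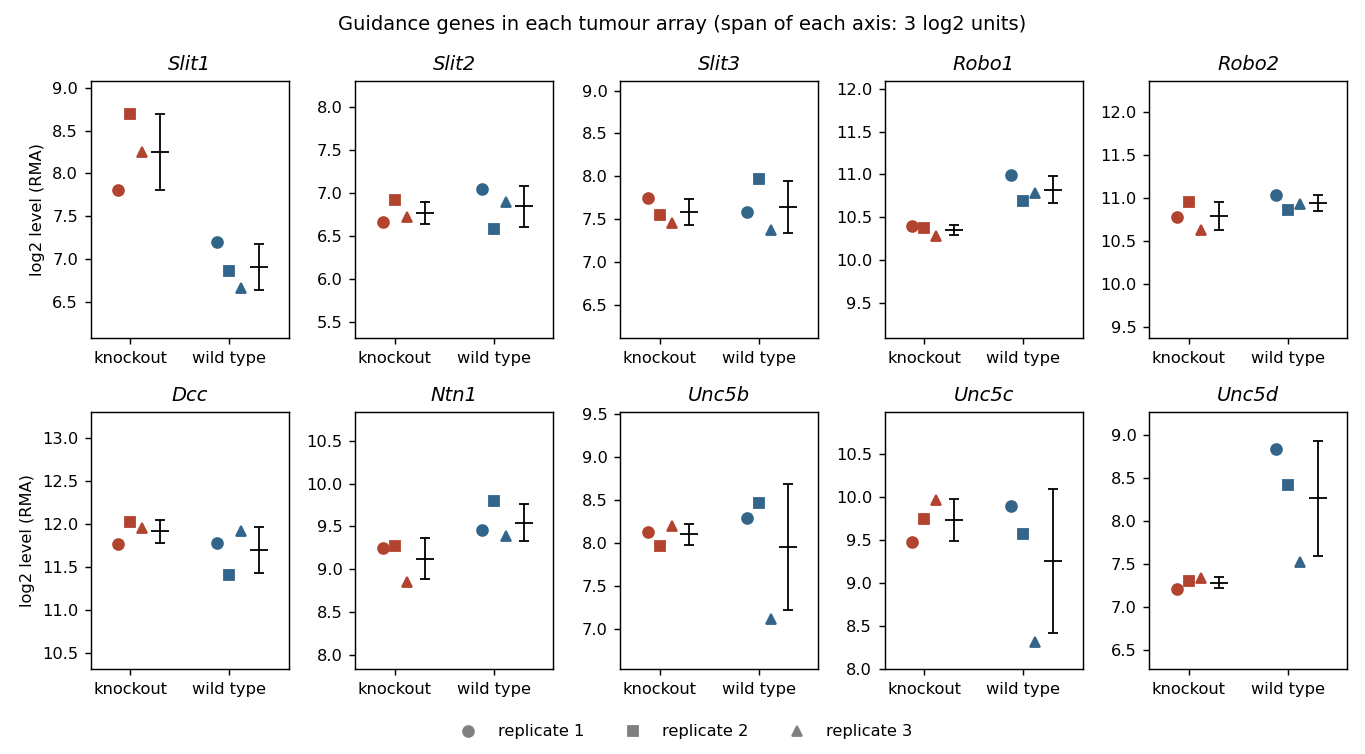
Log2 RMA level (y axis, each panel spanning 3 log2 units) of the 10 guidance genes in 3 knockout (red, left) and 3 wild type (blue, right) tumours, with the replicate shown by the symbol and the mean ± SD (n = 3) in black. Slit1 lies higher and Robo1, Ntn1 and Unc5d lie lower in all knockout tumours, and wild type replicate 3 lies far below the other wild type tumours for Unc5b, Unc5c and Unc5d.

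Among the ligands, Slit1 had the largest difference. Its log2 levels were 7.80, 8.69 and 8.24 in knockout tumours, against 7.19, 6.86 and 6.67 in wild type tumours. Every knockout value lay above every wild type value, and the lowest knockout tumour was 0.61 above the highest wild type tumour. The mean was 8.24 ± 0.44 in knockout and 6.91 ± 0.27 in wild type tumours (SD, n = 3 each), a log2 change of 1.34 (SE 0.23, 95% interval 0.81 to 1.86) or 2.52-fold. The limma adjusted p was 0.0911. Over 16 alternative settings the change lay between 1.11 and 1.56, and its adjusted p between 0.0505 and 0.264. Several of these settings can alter only the p-value and not the change. Slit1 lies on chromosome 19.

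The other slit genes showed no such separation. Slit2, on chromosome 5, had log2 levels of 6.66, 6.91 and 6.72 in knockout tumours, against 7.05, 6.58 and 6.90 in wild type tumours. Slit3, on chromosome 11, had 7.75, 7.54 and 7.46 in knockout tumours, against 7.58, 7.97 and 7.37 in wild type tumours. For both genes the knockout values were inside the range of the wild type values. The log2 change was -0.08 for Slit2 (95% interval -0.40 to 0.25, adjusted p = 0.857) and -0.06 for Slit3 (95% interval -0.43 to 0.32, adjusted p = 0.915), and each interval lies wholly below the interval of Slit1. The change of Slit1 exceeded that of Slit2 by 1.41 and that of Slit3 by 1.39 on the log2 scale, and the difference between Slit1 and each of them was higher in every knockout than in every wild type array. The exact two-sided permutation test of either difference had p = 0.1, the lowest value possible with 3 arrays in each group, and 0.14 adjusted over the 7 pairs of genes within the slit, Robo and Unc5 families.

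Ntn1, on chromosome 11, is the netrin ligand of the list. Its log2 levels were 9.25, 9.27 and 8.85 in knockout tumours, against 9.45, 9.79 and 9.39 in wild type tumours. The groups did not overlap, but only 0.12 separated the highest knockout from the lowest wild type value. The log2 change was -0.42 (SE 0.15, 95% interval -0.78 to -0.06, adjusted p = 0.301), with means of 9.13 ± 0.24 in knockout and 9.55 ± 0.22 in wild type tumours (SD, n = 3 each). Without knockout replicate 3, the lowest array, the change was -0.28.

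Of the receptors for slits, Robo1 had the difference with the smallest SE among the 10 genes. Robo1 had log2 levels of 10.40, 10.38 and 10.29 in knockout tumours, against 11.00, 10.70 and 10.78 in wild type tumours. The groups lay 0.30 apart, with knockout below wild type, and the knockout tumours differed among themselves by 0.11. The mean was 10.35 ± 0.06 in knockout and 10.82 ± 0.15 in wild type tumours (SD, n = 3 each), a log2 change of -0.47 (SE 0.11, 95% interval -0.71 to -0.23, adjusted p = 0.149) or a wild type level 1.39 times that of knockout. The change lay between -0.54 and -0.39 over the 16 alternatives, several of which can alter only the p-value, with adjusted p-values from 0.0800 to 0.330.

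Robo2 encodes another slit receptor and lies on chromosome 16 like Robo1 and the targeted gene Crebbp. Whether the shared chromosome bears on their values was not tested. Robo2 had log2 levels of 10.77, 10.95 and 10.63 in knockout tumours, against 11.04, 10.86 and 10.93 in wild type tumours. Knockout replicate 2 lay inside the wild type range, so the groups overlapped. The log2 change was -0.15 (SE 0.11, 95% interval -0.41 to 0.10, adjusted p = 0.586). Robo1 minus Robo2, taken within each array and used only to compare the groups, lay between -0.58 and -0.34 in knockout and between -0.16 and -0.04 in wild type arrays, with a difference of -0.32 and the same exact p = 0.1, or 0.14 over the 7 pairs.

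The RefSeq promoter table (GRCm38.p6) held 8 start sites of 6 of the 10 genes, among them 1 for Robo1. The 250 bases before it are shown because Robo1 is the one gene of the 4 with separated groups that the table holds. Capitals mark the 11 CG dinucleotides of this stretch at chr16:72662899-72663148 on the plus strand, which is 56.0% G or C.
Robo1: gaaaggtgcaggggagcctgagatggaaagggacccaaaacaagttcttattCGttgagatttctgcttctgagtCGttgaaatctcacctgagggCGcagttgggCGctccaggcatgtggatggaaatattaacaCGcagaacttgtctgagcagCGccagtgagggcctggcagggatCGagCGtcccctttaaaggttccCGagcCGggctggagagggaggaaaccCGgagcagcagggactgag

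A set of 4 motifs was searched on both strands of these 250-base windows, and none was found in that of Robo1. The full cyclic AMP response element TGACGTCA, bound by CREB, the factor that Crebbp is named for binding, was in 2.00% of 20611 start sites of the genes tested and in 0 of the 8 here. Its core TGACG, which the full element contains, was in 20.8% of all start sites and in 1 of the 8, that of Unc5c. The GLI motif GACCACCCA was in 0.180% of all and in 0 of the 8, and the E box CAGCTG in 12.6% of all and in 1 of the 8, a start site of Robo2. The core in Unc5c begins 79 bases before the start site and is shown in capitals, as its reverse complement, at chr3:141465473-141465502 on the plus strand.
Unc5c: gcagccgggagaCGTCAgtggctaggcgca
The median G and C content of the 8 windows was 66.2%, against 55.6% over all start sites. The 10 genes are long: their RefSeq spans ran from 69 kb for Unc5b to 1555.5 kb for Robo2, with a median of 471.2 kb, against 16.2 kb over the 22139 genes with a span.

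**Figure D2:**
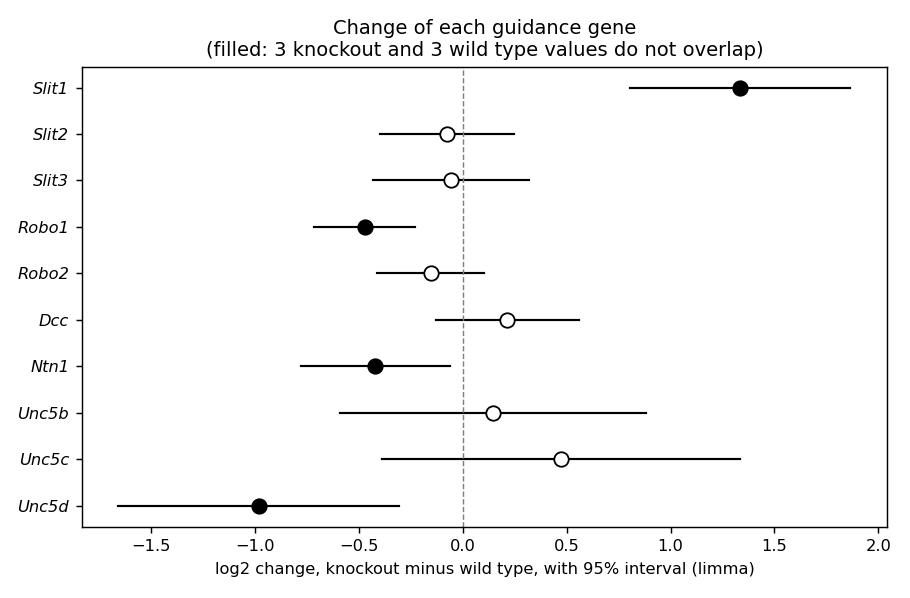
Log2 change, knockout minus wild type (x axis), of each guidance gene with its 95% interval from limma, not adjusted for the number of genes. Filled points mark genes whose 3 knockout and 3 wild type values do not overlap: Slit1 at 1.34, Robo1 at -0.47, Ntn1 at -0.42 and Unc5d at -0.98.

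Dcc, the attractive netrin receptor, had log2 levels of 11.76, 12.02 and 11.96 in knockout tumours, against 11.77, 11.40 and 11.92 in wild type tumours. The groups overlapped, and wild type replicate 2 was the lowest array. The log2 change was 0.22 (SE 0.15, 95% interval -0.13 to 0.56, adjusted p = 0.567), and without wild type replicate 2 it was 0.07.

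The Unc5 receptor genes had the largest SDs between wild type tumours among the 10 genes. Unc5b, also known for its role in blood vessel guidance, had log2 levels of 8.13, 7.97 and 8.20 in knockout tumours, against 8.28, 8.46 and 7.11 in wild type tumours. Unc5c had 9.48, 9.75 and 9.97 in knockout tumours, against 9.90, 9.58 and 8.31 in wild type tumours. Unc5d had 7.21, 7.30 and 7.34 in knockout tumours, against 8.84, 8.43 and 7.53 in wild type tumours. For all 3 genes wild type replicate 3 was the lowest of the wild type arrays, below the mean of the other wild type arrays by 1.26 for Unc5b, 1.42 for Unc5c and 1.11 for Unc5d. Of the other 7 guidance genes, Slit3 lay farthest from that mean in this array, 0.40 below it. The SD between wild type tumours was 0.73, 0.84 and 0.67 for Unc5b, Unc5c and Unc5d, against 0.12, 0.25 and 0.06 between knockout tumours.

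Unc5d, on chromosome 8, was lower in all knockout tumours, although wild type replicate 3 was only 0.19 above the highest of them. The mean was 7.28 ± 0.06 in knockout and 8.26 ± 0.67 in wild type tumours (SD, n = 3 each), a log2 change of -0.98 (SE 0.29, 95% interval -1.66 to -0.31, adjusted p = 0.228). The wild type level was 1.97 times that of knockout. Without wild type replicate 3 the change was -1.35 and passed the threshold (limma adjusted p = 0.0271), and without wild type replicate 1 it was -0.69 (adjusted p = 0.387).

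Unc5b and Unc5c did not separate. Unc5b, on chromosome 10, had a log2 change of 0.15 (SE 0.32, 95% interval -0.59 to 0.88, adjusted p = 0.884), and Unc5c, on chromosome 3, one of 0.47 (SE 0.37, 95% interval -0.39 to 1.33, adjusted p = 0.624). Both rest on wild type replicate 3: without it the changes were -0.27 (adjusted p = 0.306) and -0.0024 (adjusted p = 0.997). Taken within each array, Unc5c minus Unc5d lay between 2.26 and 2.63 in knockout and between 0.79 and 1.15 in wild type arrays, and Unc5b minus Unc5d between 0.67 and 0.92 in knockout and between -0.56 and 0.04 in wild type arrays. The change of Unc5d was thus lower than that of Unc5c by 1.45 and than that of Unc5b by 1.13 (exact p = 0.1 each, 0.14 over the 7 pairs). Wild type replicate 3, low for all 3 genes, had 0.79 for Unc5c minus Unc5d and -0.41 for Unc5b minus Unc5d, below the knockout arrays in both. Unc5b minus Unc5c overlapped between the groups (exact p = 0.2).

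**Figure D3:**
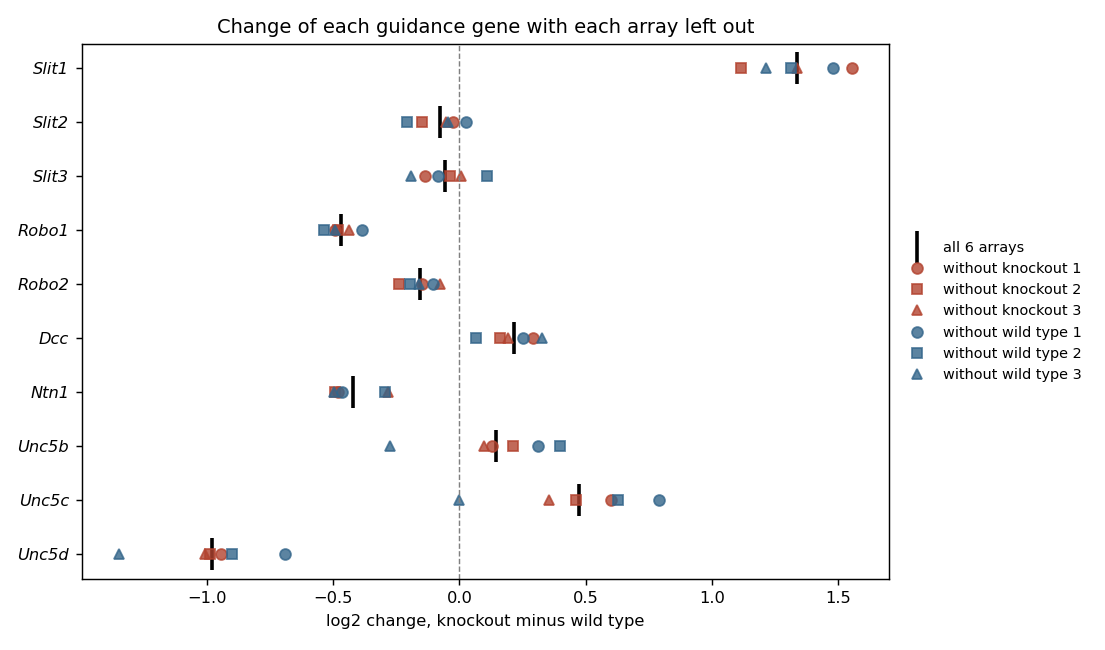
Log2 change, knockout minus wild type (x axis), of each guidance gene with all 6 arrays (black bar) and with each knockout (red) or wild type (blue) array left out. The changes of Slit1, Robo1, Robo2, Dcc, Ntn1 and Unc5d keep their sign, which could not turn for Slit1, Robo1, Ntn1 and Unc5d, whose groups do not overlap. Without wild type replicate 3 the change of Unc5b moves to -0.27 and that of Unc5c to -0.0024.

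The surroundings of these genes were read from 73 further genes of the same pathways, of which 65 were measured and 8 were not analysed here. Only Dscaml1 passed the threshold, in the negative direction, and 0 passed in the positive direction. The log2 change was negative in 45 and positive in 20 of the 65 (median -0.07), against 10890 negative and 11290 positive over all genes. Without overlap 16 were lower and 4 higher, 30.8% against 19.6% of all genes.

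Of 11 further ligands none passed, and 3 had an unadjusted p under 0.05, against 13.8% of all genes. Ntn3, another netrin, had log2 levels of 7.11, 6.97 and 6.94 in knockout tumours, against 7.54, 7.56 and 7.47 in wild type tumours, a log2 change of -0.51 (adjusted p = 0.0948). Ntng1, a membrane-anchored netrin relative that binds neither Dcc nor Unc5, had a log2 change of 0.67 (adjusted p = 0.234). Flrt3, a membrane ligand of Unc5 receptors, had log2 levels of 8.93, 8.86 and 8.99 in knockout tumours, against 8.29, 8.14 and 8.77 in wild type tumours, a change of 0.53 (adjusted p = 0.232).

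Of 14 further receptors and co-receptors, Dscaml1, an adhesion molecule related to the netrin receptor Dscam, fell. Its log2 levels were 8.69, 8.78 and 8.53 in knockout tumours, against 10.10, 9.80 and 9.64 in wild type tumours, a change of -1.18 (limma adjusted p = 0.0261). The call was lost without knockout replicate 1 (adjusted p = 0.0784), knockout replicate 3 (0.131), wild type replicate 1 (0.0761) or wild type replicate 2 (0.0983), and the change stayed between -1.28 and -1.06. Dscam, which like Robo1, Robo2 and Crebbp lies on chromosome 16, had 8.79, 8.87 and 8.59 in knockout tumours, against 9.63, 9.30 and 9.24 in wild type tumours. Its change was -0.64 (adjusted p = 0.133). Neo1, the neogenin receptor related to Dcc, had a log2 change of -0.31 (adjusted p = 0.262), and Sdc3, a heparan sulfate proteoglycan, one of -0.48 (adjusted p = 0.198). These 4 genes were lower in every knockout than in every wild type tumour, where 9.43% of all genes were. In the same list 1 gene was higher without overlap, where 10.2% of all genes were. The remaining Robo and Unc5 paralogs were looked up after their values were seen. Robo4, an endothelial receptor, differed by -0.0048 (adjusted p = 0.989), Unc5a by 0.18 (adjusted p = 0.561) and Robo3 by 0.21 (adjusted p = 0.624), and the Robo3 means of 5.82 in knockout and 5.61 in wild type tumours lay near the level of absent transcripts.

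Of 26 cytoplasmic effectors none passed, and 6 had an unadjusted p under 0.05, against 13.8% of all genes. Srgap1, a GTPase-activating protein that acts downstream of Robo receptors, had log2 levels of 8.46, 8.21 and 8.26 in knockout tumours, against 8.09, 7.76 and 7.63 in wild type tumours, a change of 0.48 (adjusted p = 0.210). In the whole list 6 genes were lower and 1 higher without overlap, against 9.43% and 10.2% of all genes. The other 5 genes with an unadjusted p under 0.05 were lower in every knockout tumour. They were the kinase gene Src (-0.33, adjusted p = 0.182), the actin regulators Evl (-0.42, adjusted p = 0.263) and Vasp (-0.25, adjusted p = 0.343), the GTPase gene Rac1 (-0.29, adjusted p = 0.236) and the exchange factor Sos1 (-0.25, adjusted p = 0.297).

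Of 14 genes of receptor trafficking, turnover and death signalling none passed. Changes were negative in 13, against 10890 of 22180 over all genes, but mostly small (list median -0.10). Lower without overlap were 4 of the 14, against 9.43% of all genes. Trim67, a ubiquitin ligase that binds Dcc, had log2 levels of 8.43, 8.58 and 8.37 in knockout tumours, against 9.25, 9.45 and 9.13 in wild type tumours. The groups lay 0.55 apart, with a log2 change of -0.81 (adjusted p = 0.0516) that passed in 9 of 16 alternatives. Siah1a and Siah1b, ubiquitin ligases that act on Dcc, had changes of -0.40 (adjusted p = 0.229) and -0.30 (adjusted p = 0.236), and Siah1b lies on the X chromosome, with sex differing between the groups. The 1 positive change, 0.63, was that of Prrg4, whose groups overlapped and which is named here after its value was seen.

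**Figure D4:**
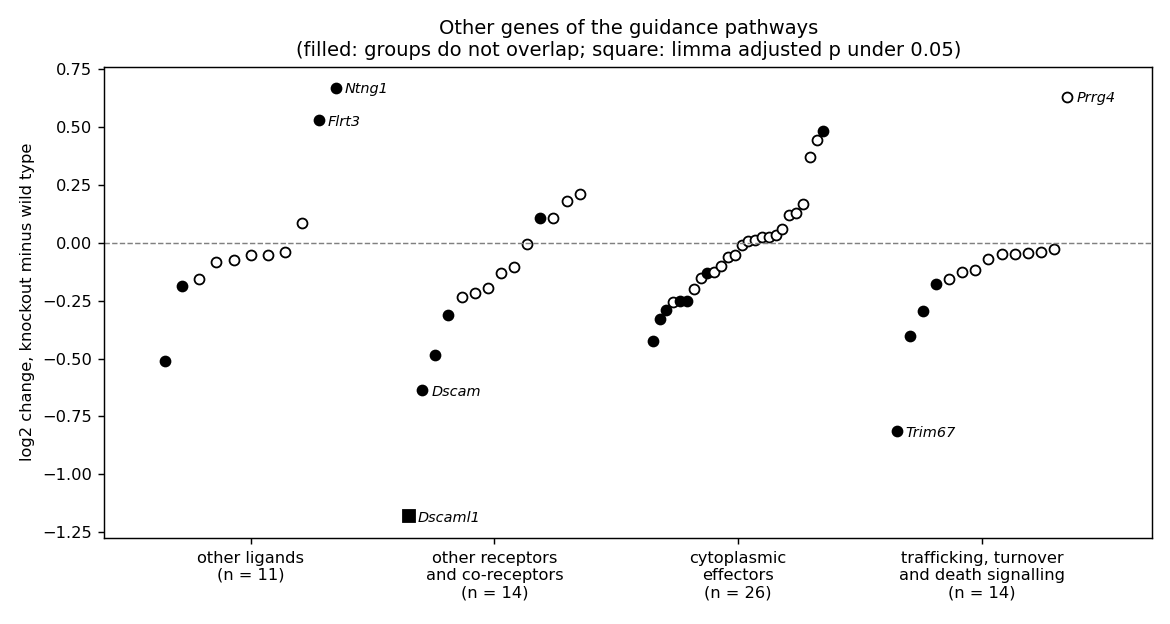
Log2 change, knockout minus wild type (y axis), of 65 further genes of the slit, Robo and netrin pathways in 4 roles (x axis), sorted by change within each role. Filled points mark genes whose groups do not overlap, and the square marks Dscaml1 at -1.18, the only one past the threshold.

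Markers of the cells the tumour tissue could hold moved with some of these values. The summed level of 8 progenitor markers, on the log2 scale, lay between 14.21 and 14.44 in knockout and between 14.56 and 14.72 in wild type tumours, without overlap, the same direction as Robo1, Ntn1 and Unc5d. Of these 8 markers 5 were lower and 1 higher without overlap, where 9.43% of all genes were lower and 10.2% higher. The sum of 8 microglia and macrophage markers was lower in knockout tumours too (12.55 to 12.88 in knockout, 13.09 to 13.25 in wild type), with 8 of 8 changes negative and 4 without overlap. The sum of 7 oligodendrocyte lineage markers was lower without overlap (12.63 to 12.74 in knockout, 12.95 to 13.18 in wild type), but the groups overlapped without its brightest gene, Pdgfra (11.44 to 11.80 in knockout, 11.67 to 12.21 in wild type). Their part in the values of Robo1, Ntn1 and Unc5d was not tested.

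Sums of 7 Purkinje cell and inhibitory neuron markers lay between 10.44 and 11.92 in knockout and between 9.62 and 10.66 in wild type tumours, and those of 8 mature granule neuron markers between 11.72 and 12.84 in knockout and between 11.84 and 12.05 in wild type tumours. Single genes of these lists moved in the direction of Slit1. Of the 7 Purkinje cell and inhibitory neuron markers 7 had positive log2 changes (median 0.73), and 6 had an unadjusted p under 0.05, against 13.8% of all genes. Gad1 and Gad2 were higher without overlap, by gaps of 0.24 and 0.03, where 10.2% of all genes were higher. Of the 8 mature granule neuron markers 6 had positive changes (median 0.78), among them Gabra6 (2.72) and Cbln3 (2.29) with overlapping groups. Slc17a7 and Kcnd2 were higher without overlap, each by a gap of 0.02, and Neurod1 was lower, by a gap of 0.48. None of these markers passed an adjusted p of 0.05 in limma. Knockout replicate 2 was the lowest knockout array of both sums, and it was the array in which Slit1 was highest. Of 9 astrocyte and Bergmann glia markers 7 had positive changes too (median 0.43). Of these 9 markers 3 had an unadjusted p under 0.05 in limma, against 13.8% of all genes, and 0 had separated groups. The part of the neurons or glia of these lists in the Slit1 values was not tested. Sums of 9 astrocyte and Bergmann glia markers ranged from 14.36 to 14.45 in knockout and from 13.57 to 14.54 in wild type tumours, with wild type replicate 3 at the top, where the 3 Unc5 genes were lowest among wild type arrays. Wild type replicate 3 was also the highest wild type array for the Purkinje cell, the endothelial and pericyte (11.26 to 11.69 in knockout, 11.22 to 11.43 in wild type) and the fibroblast and meningeal sums (12.66 to 12.72 in knockout, 12.63 to 12.88 in wild type). It was the lowest wild type array for the progenitor sum, at 14.56, and for the oligodendrocyte lineage sum, at 12.95, the direction of its Unc5 values. It lay between the other wild type arrays for mature granule neuron and microglia sums. The part of these cells in the low Unc5 values was not tested. Pdgfra stands on the fibroblast list as well. Without it the sum of the other 7 genes lay between 11.45 and 11.95 in knockout and between 10.99 and 11.49 in wild type tumours. Igf2 (1.39) and Lum (0.56) were higher and Foxc1 (-0.45) was lower without overlap, by gaps of 0.74, 0.01 and 0.21. Of 64 different markers listed 62 were measured. The lowest group mean was 5.99, for Pax2 in wild type tumours, near the maximum of 5.74 for absent transcripts. Without detection calls, such a value does not show that a marker is expressed.

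**Figure D5:**
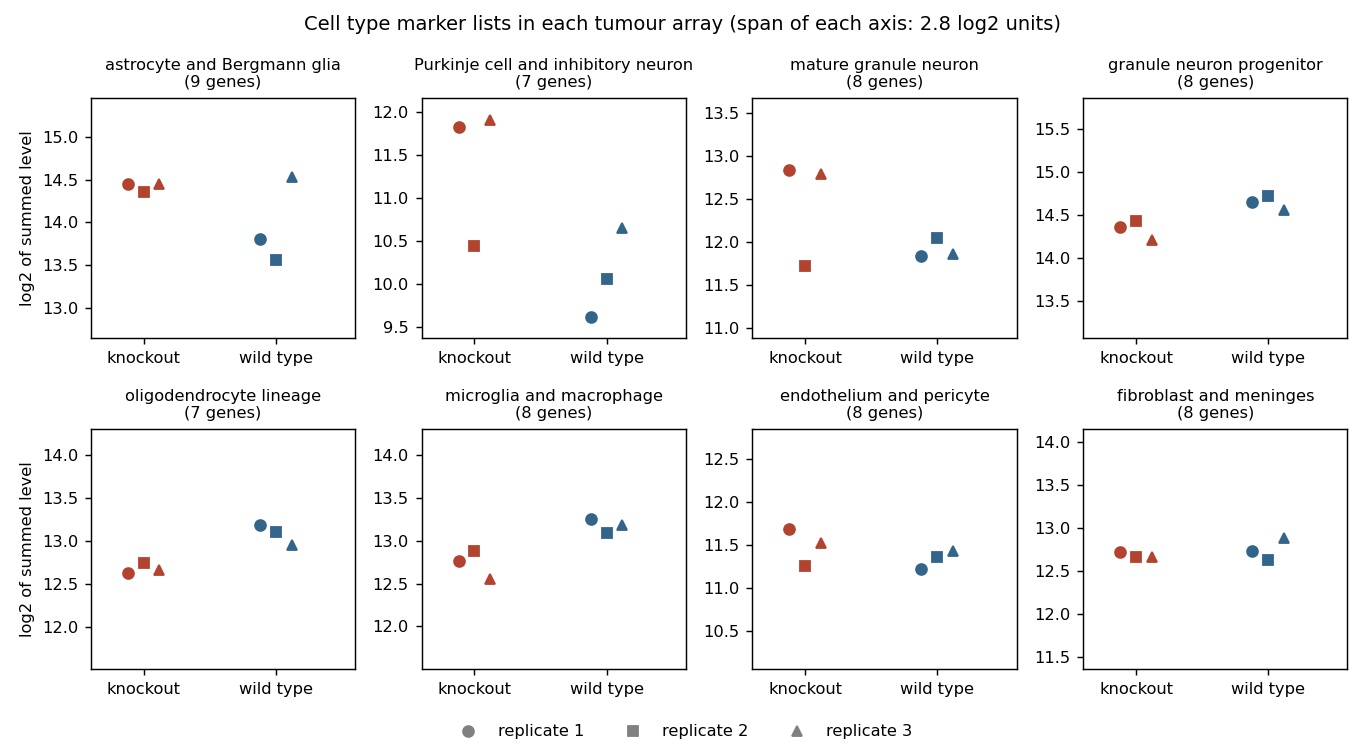
Log2 of the summed linear levels of each cell type marker list (y axis, each panel spanning 2.8 log2 units) in 3 knockout (red, left) and 3 wild type (blue, right) tumours, with the replicate shown by the symbol. Progenitor, microglia and oligodendrocyte lineage sums (the last with Pdgfra included) are lower in all knockout tumours, and the neuronal lists are lowest in replicate 2 among knockout tumours.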

How the data were processed

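RNA of 6 tumours was hybridised to Affymetrix whole-transcript arrays, and samples were grouped by their titles. The submitters' processing notes name RMA and oligo, and the log2 values used here are those the authors deposited. The versions of both tools were not given in the sources used here. The RMA method subtracts background, equalises array distributions and summarises probes, which compresses changes of dim features and removes any change shared by most genes. The deposited table held 41345 features, of which 23521 had 1 gene symbol, 1814 several and 16010 were unnamed here. For each gene the feature with the highest mean over the 6 arrays was kept, with no filter on level. Array medians ran from 6.91 to 7.00, and there are no detection calls.

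The 22180 genes were fitted in R 4.3.3 with limma 3.58.1 (two-sided moderated test, constant prior variance, threshold 0.05), knockout minus wild type, with Benjamini-Hochberg adjustment over all genes. Pairs of genes within a family were compared by an exact permutation test. The fit was tested on simulated data. The further genes named were those past the threshold, those with an unadjusted p under 0.05 and no overlap, or otherwise the 2 with the smallest p of each list. Outside this rule, Robo3, Robo4, Unc5a, Prrg4 and single markers were named after their values were seen. Members and lists were chosen with earlier results of these data known. Marker sums are log2 of summed linear values. Promoters and spans came from RefSeq (GRCm38.p6), the array's own build being unstated. Alternatives covered scaling, dim genes, variance models, array weights, features per gene, a replicate block, X and Y genes, the threshold and leaving out each array.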

Additional observations from a re-analysis of the deposited data

How the results depend on the processing

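The 10 guidance genes were refitted under 16 alternatives, or 15 for Slit2, which is among the dimmest 50 percent of genes. The direction of Slit1, Robo1, Robo2, Dcc, Ntn1 and Unc5d held in all of them. Filters on dim genes, the variance models, the mean of features and the replicate block left each of these changes as it was. So did removing X and Y genes, so none of these settings tests the direction. With an array left out, the direction could not turn for Slit1, Robo1, Ntn1 and Unc5d, whose groups do not overlap. Of the 10 genes, 0 passed in 15 of the alternative fits, and 1, Unc5d, without wild type replicate 3 (log2 change -1.35, adjusted p = 0.0271). At an adjusted p of 0.1 there was 1, Slit1. Leaving out each array gave changes of 1.11 to 1.56 for Slit1, -0.21 to 0.027 for Slit2, -0.19 to 0.11 for Slit3, -0.27 to 0.40 for Unc5b, -0.0024 to 0.79 for Unc5c and -1.35 to -0.69 for Unc5d. With array weights Unc5b had -0.022. The number of guidance genes without overlap, a count added after seeing the data, was 4 with either other scaling. With each array left out it was 4 to 5, while the share of all genes without overlap was 26.9% to 35.7%. Leaving out an array cannot make separated groups overlap, so this count could not fall below 4. Over all genes, 46 calls became 77 without the dimmest 25 percent of genes, 107 with a variance trend, 131 at an adjusted p of 0.1, and 4 to 128 with each array left out. Of the 65 further pathway genes, 1 call became 2 with median centring, quantile normalization, either filter on dim genes, a variance trend, array weights or the mean of all features, 3 at an adjusted p of 0.1, and 0 to 2 with each array left out. Without Pdgfra, a choice added after seeing the data, the mean difference of the fibroblast sum was 0.43 against -0.07 with it, and that of the oligodendrocyte lineage sum -0.36 against -0.40. The filters leave fewer genes in the adjustment, and the causes of these changes in count were not tested.

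With the replicate block, 12 genes and 0 of the pathway genes passed, Dscaml1 having an adjusted p of 0.0683, and 0 guidance genes did. The titles number the tumours in both groups, but do not say that equal numbers mean a pair. Deviations of same-numbered arrays from their group means correlated over genes at -0.03, 0.05 and 0.10. Those of differently numbered arrays ran from -0.14 to 0.11, so these values cannot decide whether tumours were paired. The block changed no other call among the genes named. The low number of arrays and the lack of detection calls limit what can be said of dim genes.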
